A study of Homo sapiens with 6 samples.

Results

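The genes described here encode the H3K4 methyltransferase complexes of the COMPASS family, the enzymes KMT2A, KMT2B, KMT2C, KMT2D, SETD1A and SETD1B and the shared subunits ASH2L, WDR5, RBBP5 and DPY30. They were chosen by symbol, and all 10 are among the 18086 gene symbols of the deposited peak lists. A gene's peaks are the distinct regions listed within 20 kb of a transcription start site (TSS) of any of its transcripts. The cells are HL-60, a human promyelocytic leukaemia line that grows in suspension and is labelled as myeloblast. ChIP-seq, the sequencing of DNA pulled down with an antibody to a chromatin protein or mark, gave 1 library each for H3K4me3 and H3K27me3 in JMJD3 knockout cells and in parental cells. JMJD3 is the H3K27 demethylase encoded by KDM6B; how the knockout was made, and whether it is 1 clone or a pool, the labels do not say. A single library per group leaves every difference below without a replicate check, so no p-value is given and the values describe these libraries.

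In these complexes a catalytic SET-domain enzyme sits on a core module of WDR5, RBBP5, ASH2L and DPY30, which raises its activity on lysine 4 of histone H3. The enzymes form related pairs: SETD1A and SETD1B place much of the H3K4me3 at active promoters, KMT2A and KMT2B act with menin at a smaller set that includes HOX genes, and KMT2C and KMT2D place H3K4me1 at enhancers in a complex that also holds KDM6A, the relative of JMJD3. KMT2A is cut and fused to other genes in a class of acute leukaemias. The comparison of genotypes asks where both histone marks were called at the genes of this machinery.

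The lists give positions only, with no read count or peak height, so sequencing depth is unknown and a wider or longer list can come from a deeper or cleaner library. The H3K4me3 lists hold 24943 knockout and 33470 parental peaks, and the H3K27me3 lists 3234 knockout and 3578 parental peaks. The narrowest H3K4me3 peak in either list is 146 bp wide, a width shared by 6.24% of knockout and 4.36% of parental peaks. All 8 of the listed granulocyte lineage genes had an H3K4me3 peak within 20 kb in each genotype. Of all 18086 gene symbols, 13665 had one in knockout and 15382 in parental cells, so this count says little about cell identity. AZU1 and PRTN3, both among the 8, had equal summed widths of 869 bp in knockout and 1207 bp in parental cells. Their peak numbers, 4 in knockout and 3 in parental cells, were equal too. Whether these are the same peaks was not tested, so the 8 genes need not be independent.

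The start regions of KMT2A, KMT2B and KMT2C, and 1 of those of WDR5, were rich in CpG, the dinucleotide bound by the CXXC domains of KMT2A, KMT2B and the SETD1 partner CXXC1. RefSeq windows of GRCh38.p14 matched 7 of the 10 genes; SETD1B, ASH2L and DPY30 had no entry. The peaks below are in hg19, a different build, and a RefSeq start can differ from the TSS used in the lists, so the windows show the promoter type and not the base under a peak. The 250 bases before the start are printed 5′ to 3′ with CpG in capitals for 4 genes whose peaks near the TSS are described below: KMT2A and KMT2C, where the TSS lay beside called peaks in both genotypes, SETD1A, where a peak over the TSS was listed in parental cells only, and RBBP5, where a knockout peak lay on the side of the TSS with none in parental cells.
KMT2A: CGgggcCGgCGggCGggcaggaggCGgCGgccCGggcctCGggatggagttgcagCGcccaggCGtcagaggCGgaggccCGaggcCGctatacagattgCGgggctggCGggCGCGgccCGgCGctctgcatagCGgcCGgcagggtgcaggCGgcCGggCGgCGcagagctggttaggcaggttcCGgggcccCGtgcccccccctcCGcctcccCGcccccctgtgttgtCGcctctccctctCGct
KMT2C: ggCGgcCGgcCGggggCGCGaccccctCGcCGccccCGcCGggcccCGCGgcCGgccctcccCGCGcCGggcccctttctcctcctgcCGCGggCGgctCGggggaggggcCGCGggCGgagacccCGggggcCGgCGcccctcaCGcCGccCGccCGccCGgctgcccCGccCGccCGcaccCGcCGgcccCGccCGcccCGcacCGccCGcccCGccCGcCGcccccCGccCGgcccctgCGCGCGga
SETD1A: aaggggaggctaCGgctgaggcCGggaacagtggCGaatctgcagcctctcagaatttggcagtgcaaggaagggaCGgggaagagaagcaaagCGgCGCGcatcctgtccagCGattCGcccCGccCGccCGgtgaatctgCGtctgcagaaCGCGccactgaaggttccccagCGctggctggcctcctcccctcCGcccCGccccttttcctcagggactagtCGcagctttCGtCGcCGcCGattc
RBBP5: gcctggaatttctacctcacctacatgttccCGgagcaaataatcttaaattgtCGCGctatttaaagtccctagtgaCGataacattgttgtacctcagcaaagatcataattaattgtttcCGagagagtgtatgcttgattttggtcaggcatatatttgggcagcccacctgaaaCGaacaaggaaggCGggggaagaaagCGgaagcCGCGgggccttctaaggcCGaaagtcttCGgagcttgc
The windows lie on chromosome 11 (118436242 to 118436541, plus strand), chromosome 7 (152435954 to 152436253, minus strand), chromosome 16 (30957504 to 30957803, plus strand) and chromosome 1 (205121929 to 205122228, minus strand), each with the 50 transcribed bases that are not printed.

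KMT2C had 48 CpG in these 250 bases, KMT2B 40 and KMT2A 31, against a median of 11 over 35116 RefSeq promoter windows. Only 0.262% of windows held as many CpG as KMT2C, 2.16% as many as KMT2B and 10.9% as many as KMT2A. KMT2D and SETD1A each had 23 and RBBP5 12, near the median. WDR5 has 4 start windows, with 2, 9, 23 and 39 CpG, and 2.65% of windows held as many as the last. The GC box GGGCGG, searched on both strands, occurred 11 times at KMT2C, 3 times each at KMT2A and KMT2B and 2 times each at SETD1A and KMT2D, and 0, 1, 2 and 5 times in the WDR5 windows, and 42.6% of all windows hold it. RBBP5 held none of the 4 motifs searched: the GC box, the ETS core CCGGAA (14.5% of windows), the E-box CACGTG (6.34%) and the YY1 core ATGGCG (6.50%). KMT2A and the first WDR5 window held 1 ETS core each, and KMT2D and the last WDR5 window 1 E-box each.

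Every one of the 10 genes carried H3K4me3 in both genotypes, and in every one the summed width of its peaks was smaller in the knockout list. Over all genes listed in either genotype, 86.0% were listed in both, 1.49% in knockout cells only and 12.5% in parental cells only. The median log2 ratio of summed width, knockout over parental, was -0.91 over the 10 genes and -1.03 over the 13433 genes listed in both. Their ratios ran between -2.92 and -0.57, and all 10 were below 0, as were 96.1% of all genes. A width at most 1/2 of the parental one was found for 4 of the 10 (WDR5, SETD1A, KMT2A and SETD1B), or 40%, where 52.2% of all genes met this limit. None of the 10 was at least 2-fold wider, as 0.395% of all genes were. The narrower knockout regions at these genes are thus a property that nearly all genes of the list share.

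**Figure D1:**
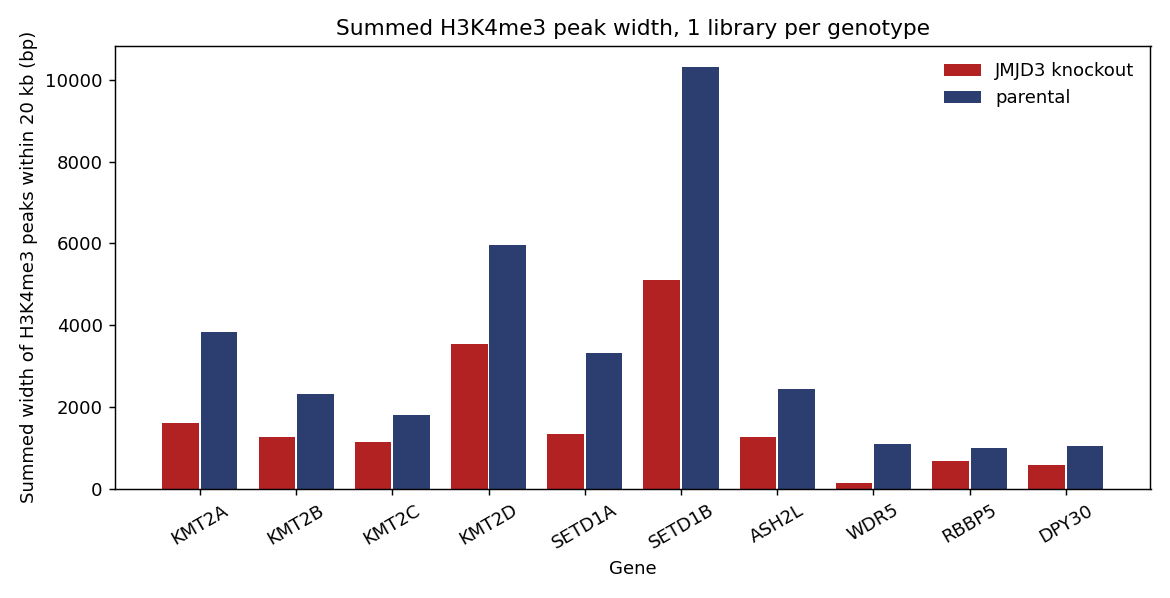
Summed width in bp (y axis) of the distinct H3K4me3 peaks listed within 20 kb of a TSS of each gene (x axis), with the JMJD3 knockout library in red and the parental library in blue, 1 library each. The knockout bar is the lower one for all 10 genes, and SETD1B is the widest gene in each genotype, with 5092 bp in knockout and 10311 bp in parental cells.

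KMT2A, whose product maintains HOX gene activity in blood cells, was narrower in knockout cells mainly on the upstream side of its TSS. Its 5 knockout peaks summed to 1604 bp (mean 321 bp), against 7 parental peaks of 3830 bp (mean 547 bp), a log2 ratio of -1.26. The TSS of transcripts NM_005933 and NM_001197104 lies at 118307205 on chromosome 11 (hg19). Upstream of it, the knockout list covered 156 bp and the parental list 1490 bp; downstream, the knockout list covered 1448 bp and the parental list 2340 bp. The downstream side therefore held 90.3% of the width in knockout cells and 61.1% in parental cells. The widest peak was 591 bp in knockout cells and 1366 bp in parental cells, the parental one running from 118307260 to 118308625. Both outermost upstream peaks of the parental list, of 165 and 357 bp, had no knockout peak over them.

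KMT2B, the closest relative of KMT2A, was covered by smaller pieces of the same regions. Its TSS (NM_014727) lies at 36208921 on chromosome 19. The knockout list held 4 peaks of 1263 bp in all and the parental list 3 peaks of 2324 bp, a log2 ratio of -0.88. Each of the parental peaks next to the TSS, of 1117 and 1027 bp, was overlapped by 2 knockout peaks, and 100% of the knockout width lay inside parental peaks. The remaining parental peak, of 180 bp at -15365 bp, was nearer to ZBTB32. With peak centres limited to 1 kb from the TSS, or peaks spanning it, KMT2B had 1037 bp in knockout and 1027 bp in parental cells, since the parental upstream peak is centred at -1045 bp.

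KMT2C, an enhancer-type enzyme often mutated in cancer, differed less than most genes by summed width. It had 4 knockout peaks of 1134 bp and 5 parental peaks of 1807 bp, a log2 ratio of -0.67, and 74.1% of all genes had a lower ratio. By the widest peak KMT2C had a ratio of -1.06, against a median of -1.05 over all genes. Its TSS (NM_170606, minus strand) lies at 152133091 on chromosome 7. All peaks for which KMT2C was the nearest gene lay downstream of it, 924 bp in knockout and 1661 bp in parental cells. The peak next to the TSS differed little: it was centred at -159 bp with 185 bp in knockout cells and at -158 bp with 242 bp in parental cells. On the other side of the TSS each list held 1 peak, of 210 bp in knockout and 146 bp in parental cells, which did not overlap each other and lay nearest to the pseudogene FABP5P3. With peak centres limited to 1 kb from the TSS the order was turned, with 798 bp in knockout and 242 bp in parental cells. The parental peaks centred at -1038 bp (839 bp) and 1073 bp (146 bp) fell just outside this limit. Knockout peaks centred at -941 bp (403 bp) and 888 bp (210 bp) fell just inside it.

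KMT2D, the partner of KMT2C and a frequent target of mutation in lymphoma, had the second widest region of the 10 genes. It had 8 peaks in each genotype, summing to 3534 bp in knockout and 5949 bp in parental cells, a log2 ratio of -0.75. The TSS used in the lists (NM_003482, minus strand) lies at 49449108 on chromosome 12. The peaks nearest to KMT2D all lay upstream of it, with centres 1164 to 4256 bp away in knockout cells and 707 to 6025 bp away in parental cells. A RefSeq start can differ from this listed TSS, so upstream here holds for the listed TSS alone. The widest parental peak, 1811 bp from 49451701 to 49453511, was overlapped by 4 knockout peaks. The outer parental peaks at 4915 and 6025 bp, of 708 and 889 bp, were covered by knockout peaks over 17 and 0 bp. At 14247 bp in knockout and 14208 bp in parental cells the lists held a peak of 579 and 782 bp at the TSS of RHEBL1, which is counted with KMT2D because of the 20 kb limit. Without it and a parental neighbour of 173 bp, the ratio was -0.76.

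SETD1A had the lowest ratio of summed width among the enzymes, and its parental peak over the TSS was overlapped by no knockout peak. Within 20 kb it had 3 knockout peaks of 1329 bp and 7 parental peaks of 3322 bp, a log2 ratio of -1.32. In bp its difference of -1993 was smaller than those of SETD1B (-5219), KMT2D (-2415) and KMT2A (-2226). Its widest peaks, 651 bp in knockout and 770 bp in parental cells, gave a ratio of -0.24, the highest of the 10 by that measure, and with peaks of at least 300 bp (-1.10) KMT2B (-1.88), KMT2A (-1.44) and SETD1B (-1.22) were lower. Of its peaks, 2 knockout and 4 parental peaks were nearest to ORAI3, a calcium channel gene upstream. The peaks nearest to SETD1A itself (NM_014712, TSS at 30968615 on chromosome 16) were 1 knockout peak of 319 bp and 3 parental peaks of 1661 bp, a log2 ratio of -2.38. That parental peak was 537 bp, from 30968381 to 30968917, and the next one, of 432 bp, was not overlapped either. The nearest knockout peak was centred 1353 bp from the TSS, against 34 bp in parental cells.

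SETD1B had the widest listed region of the 10 genes in each genotype, much of it at neighbouring genes. Its 14 knockout peaks summed to 5092 bp (mean 364 bp) and its 14 parental peaks to 10311 bp (mean 736 bp), a log2 ratio of -1.02. Only 0.432% of genes were wider in knockout cells and 0.124% in parental cells. All 14 peaks of each list are also listed with RHOF and the non-coding gene LINC01089. Peaks nearest to SETD1B itself (NM_015048, TSS at 122242638 on chromosome 12) numbered 5 of 2280 bp in knockout and 6 of 4878 bp in parental cells, a log2 ratio of -1.10. The parental peak of 1520 bp spanned the TSS from 122242329 to 122243848; in its place the knockout list held peaks of 146 and 449 bp on either side. The widest parental peak, 2103 bp at -3314 bp, was overlapped by 5 knockout peaks. By summed width in both H3K4me3 libraries, the genes most like SETD1B were RHOF and LINC01089, which share its peaks, and SNORD96A with 4697 bp in knockout and 10332 bp in parental cells.

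**Figure D2:**
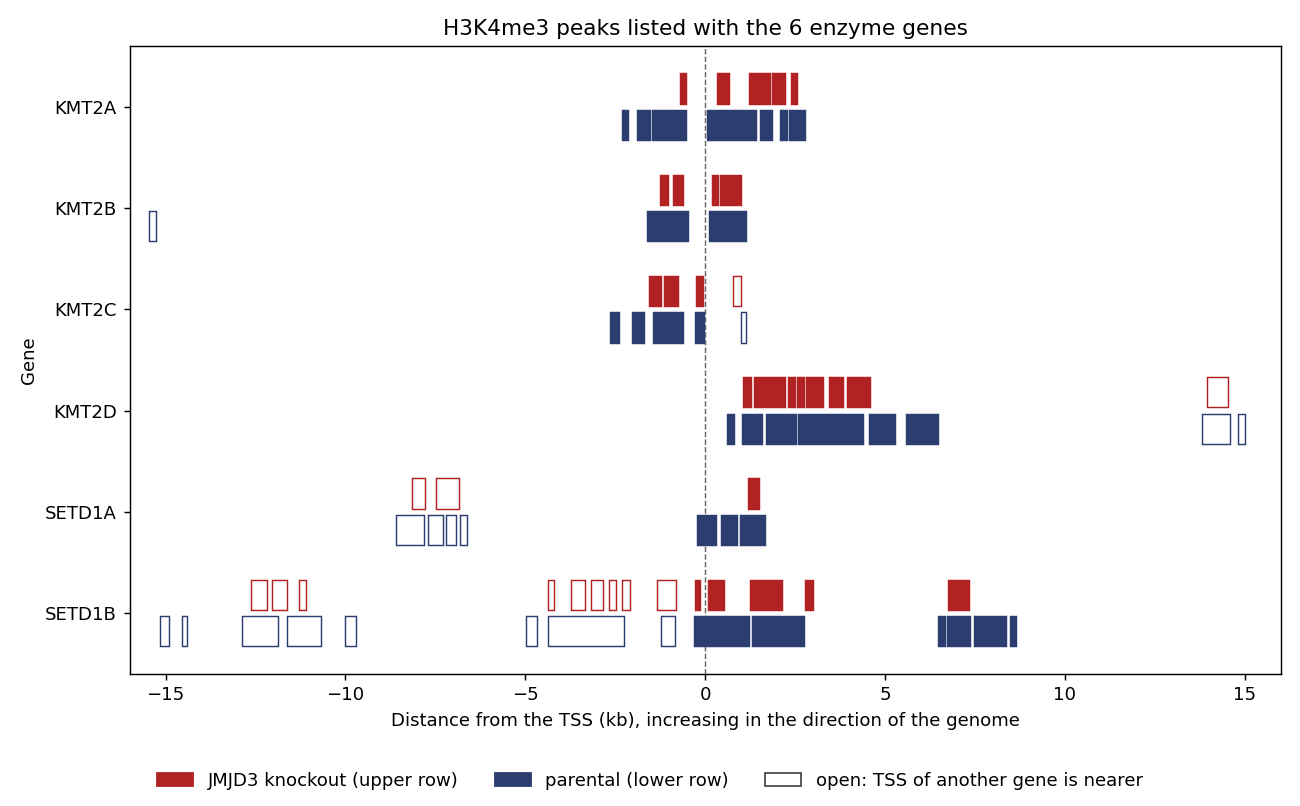
H3K4me3 peaks listed with the 6 enzyme genes, drawn to scale by distance from the TSS in kb, with knockout peaks in red above parental peaks in blue and open boxes where the TSS of another gene is nearer. At KMT2A, KMT2B and KMT2C the TSS lies between peaks in both genotypes, and at SETD1A the filled parental boxes number 3 and the knockout boxes 1.

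By summed width, WDR5 had the lowest ratio of the 10 members. WDR5, the propeller protein that docks histone tails and many partners, had 1 knockout peak of 146 bp and 3 parental peaks of 493, 282 and 329 bp. The log2 ratio of summed width, 146 bp against 1104 bp, was -2.92, and 2.11% of all genes had a lower one. By the widest peak, 146 bp in knockout and 493 bp in parental cells, its ratio was -1.76, and that of RBBP5 was lower. The knockout peak, from 137001945 to 137002090 on chromosome 9, has the smallest width found in its list and overlapped the outermost parental peak by 61 bp. In knockout cells 98.4% of genes were wider and in parental cells 73.0%. Of its listed starts, the one of NM_017588 at 137001210 had parental peaks on both sides and a knockout peak on the downstream side alone. The start of NM_052821 at 137004914 had its nearest peak centred at -2896 bp in knockout and at -2720 bp in parental cells. The 144 genes within 5 Mb of WDR5 had a median ratio of -1.03, equal to that of all genes.

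ASH2L, which binds DPY30 and helps to hold the enzyme active, had 4 peaks in each genotype, and 3 of the 4 parental ones were overlapped by a knockout peak. They summed to 1269 bp in knockout and 2445 bp in parental cells, a log2 ratio of -0.95, and 94.7% of the knockout width lay inside parental peaks. ASH2L has starts at 37963011 and 37963311 on chromosome 8, and neither was inside a peak in either genotype. The knockout list had smaller regions of 570 and 192 bp before the first start and 266 and 241 bp after the second; the parental list had 1056 bp before and 690, 327 and 372 bp after.

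RBBP5 and DPY30 were each covered by 1 wide parental peak and by several narrower knockout peaks. RBBP5, which bridges WDR5 and the catalytic domain, had knockout peaks of 180, 262 and 226 bp and a parental peak of 991 bp, a log2 ratio of -0.57, the highest of the 10 by summed width. By the widest peak alone, 262 bp in knockout and 991 bp in parental cells, its ratio was -1.92, the lowest of the 10, and by summed width within 1 kb of the TSS it was -1.02. The parental peak ended 69 bp short of the TSS at 205091151 on chromosome 1 and lay wholly downstream of it on the minus strand. The knockout list held 442 bp on that side and a peak of 226 bp, from 205091654 to 205091879, on the upstream side, where the parental list had no peak within 20 kb. DPY30, the smallest subunit of the core, had knockout peaks of 420 and 166 bp and a parental peak of 1049 bp, a log2 ratio of -0.84. The parental peak, from 32264208 to 32265256 on chromosome 2, spanned the TSS at 32264845, which lay in a gap of 392 bp between the knockout peaks.

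**Figure D3:**
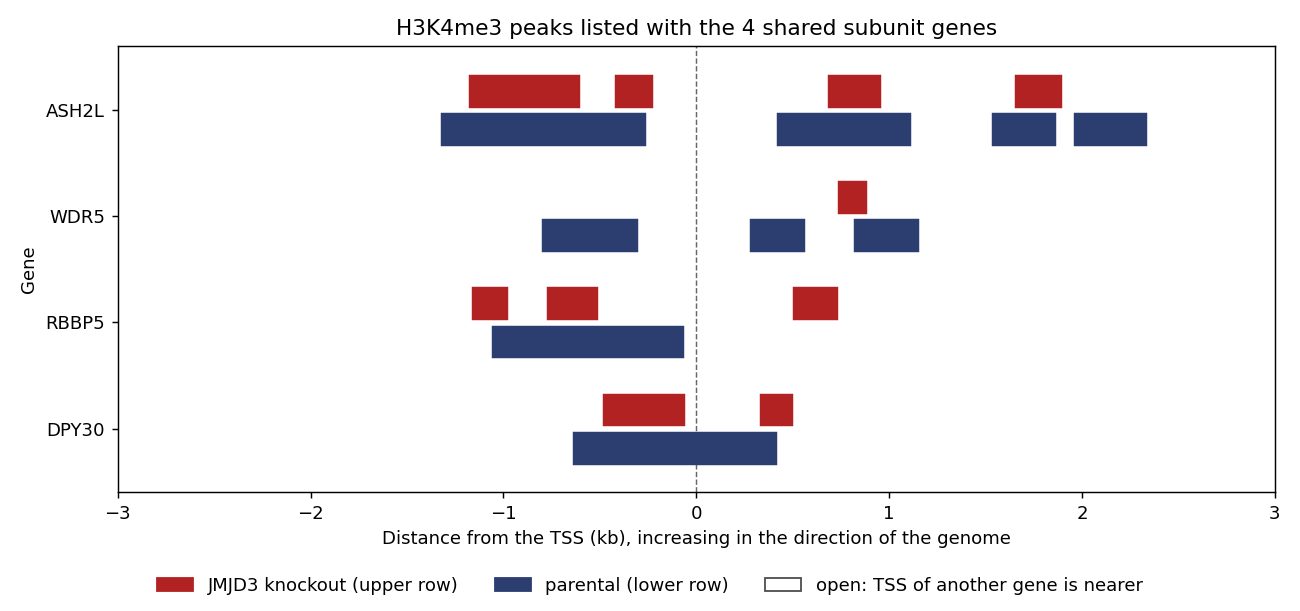
H3K4me3 peaks listed with ASH2L, WDR5, RBBP5 and DPY30, drawn to scale by distance in kb from the TSS (for ASH2L and WDR5 the start with the lower coordinate), with knockout peaks in red above parental peaks in blue. WDR5 has 1 knockout box of 146 bp above 3 parental boxes, and the single parental boxes of RBBP5 and DPY30 face 3 and 2 knockout boxes.

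Start sites of these genes lay between called peaks more often than inside them. No member had a TSS inside a knockout peak, and 3 had one inside a parental peak (SETD1A, SETD1B and DPY30). Over all genes with a peak, 8.2% had a TSS spanned in knockout cells and 20.2% in parental cells. Where peaks flanked the TSS in both lists, the uncovered stretch was 871 bp in knockout and 571 bp in parental cells at KMT2A. It was 788 bp in knockout and 592 bp in parental cells at KMT2B, and 917 bp in knockout and 683 bp in parental cells at ASH2L. At KMT2C it was 849 bp in knockout and 1037 bp in parental cells. The knockout stretch was the longer one at 3 of these 4 genes, KMT2C being the other. These stretches were not measured over all genes, so this count cannot be called particular to the members.

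The knockout peaks of these genes were mostly parts of parental peaks. Of 48 knockout peaks, 45 (93.8%, Wilson 95% interval 83.2 to 97.9) overlapped a parental peak by at least 1 bp, against 88.7% of all knockout peaks. Of 53 parental peaks, 31 (58.5%, 45.1 to 70.7) overlapped a knockout peak, against 52.6% of all parental peaks. Both intervals cover counting error only and include the share over all peaks; neighbouring peaks are not independent. Measured in bases, 84.7% of the members' knockout width lay in parental peaks, against 82.2% over all knockout peaks, and 42.5% of their parental width lay in knockout peaks, against 38.9% over all parental peaks. Parental peaks with a knockout peak over them had a median width of 782 bp and the others 272.5 bp. Of the 53 parental peaks, 13 were overlapped by 2 or more knockout peaks. Neither these widths nor this count was computed over all parental peaks, so they cannot be called particular to the members. The number of peaks followed the width only in part. It was higher in knockout cells at 3 members (KMT2B, RBBP5 and DPY30), where 22.2% of all genes had more. It was lower at 4, as at 54.2% of all genes, and the same at 3, as at 23.6%.

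The 3 knockout peaks without a parental counterpart were under 300 bp wide, as were 59.3% of all knockout peaks. They were the RBBP5 peak upstream of the TSS (226 bp), the KMT2C peak at the FABP5P3 start (210 bp) and a SETD1B peak at 2891 bp (220 bp). The median width of all member peaks was 307.5 bp in knockout and 460 bp in parental cells. Over all H3K4me3 peaks it was 260 bp in knockout and 359 bp in parental cells.

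Ranked from the lowest ratio, the members were WDR5 (-2.92), SETD1A (-1.32), KMT2A (-1.26), SETD1B (-1.02), ASH2L (-0.95), KMT2B (-0.88), DPY30 (-0.84), KMT2D (-0.75), KMT2C (-0.67) and RBBP5 (-0.57). Without replicates no spread exists by which neighbours in this order can be told apart. The share of all genes with a lower ratio was 32.5% for SETD1A and 79.9% for RBBP5, and the other members except WDR5 lay between these values. Within 5 Mb of each member the median ratio of the other genes ran between -1.23 at KMT2D and -0.85 at SETD1B. The ratios of KMT2D (-0.75), RBBP5 (-0.57, with -1.05 nearby) and KMT2C (-0.67, with -0.96 nearby) were above those of their neighbours. So were those of DPY30 (-0.84, with -1.05 nearby) and KMT2B (-0.88, with -1.02 nearby). Those of WDR5 (-2.92, with -1.03 nearby), KMT2A (-1.26, with -0.88 nearby) and SETD1A (-1.32, with -0.89 nearby) were below. SETD1B was also below (-1.02), and ASH2L equalled its neighbours at -0.95.

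**Figure D4:**
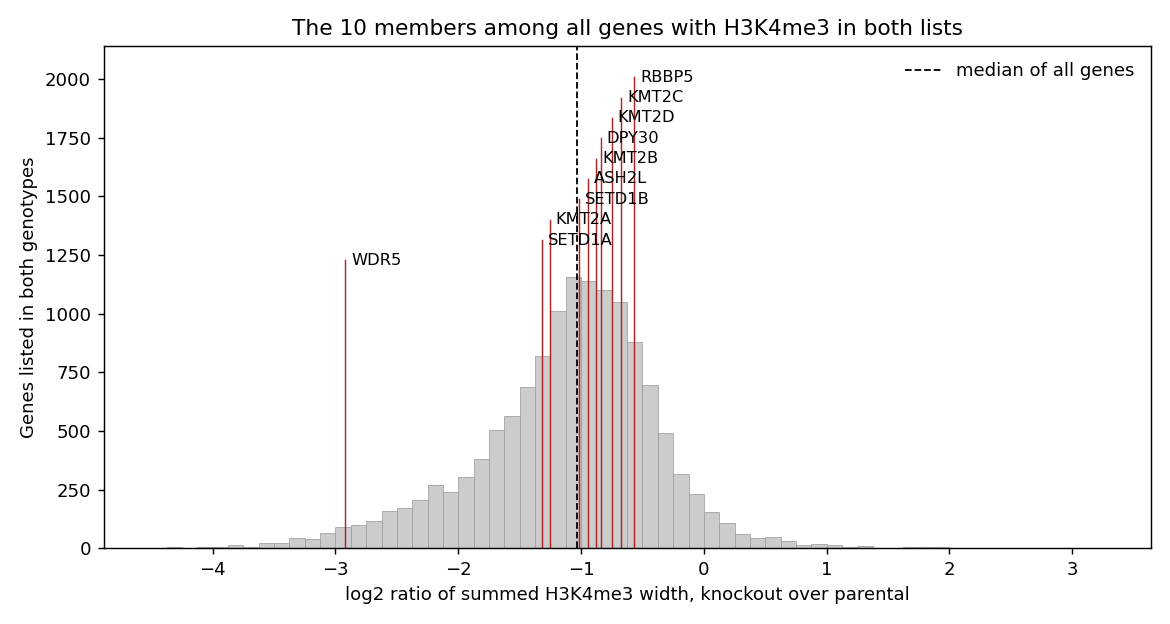
Histogram of the log2 ratio of summed H3K4me3 width, knockout over parental (x axis), over the 13433 genes listed in both genotypes (y axis: number of genes), with the 10 members as red lines and the median of all genes, -1.03, as a dashed line. WDR5 at -2.92 lies in the low tail and the other 9 lie between -1.32 and -0.57.

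No H3K27me3 peak was listed within 20 kb of any member in either genotype. Over all 18086 genes, 13.0% had one in knockout cells, 12.9% in parental cells and 18.2% in at least 1 genotype. The nearest listed H3K27me3 peak lay 50.6 kb from SETD1A in knockout cells and 3640 kb in parental cells. It lay 2110 kb from KMT2B in knockout and 208 kb in parental cells. The distances were alike at RBBP5, 161 kb in knockout and 165 kb in parental cells, at KMT2C, 986 kb in knockout and 987 kb in parental cells, and at SETD1B, 1160 kb in both. For the other genes the range was 291 to 653 kb in knockout and 360 to 2540 kb in parental cells. These distances run to peaks that are listed near some TSS, since the lists hold no others.

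Most genes that work with or against these complexes were narrower in the knockout list as well. Of 12 subunits found in some of the complexes only, 10 were listed in both genotypes with a median ratio of -1.04. Of these 10, 5 were at least 2-fold narrower, against 52.2% of all genes listed in both. The other 2 were listed in parental cells only, as were 12.5% of all genes listed in either genotype. HCFC1, the host cell factor bound by SETD1 and KMT2 complexes, had 0 bp in knockout and 2403 bp in parental cells. PSIP1, which tethers menin and KMT2A to chromatin, had 0 bp in knockout and 885 bp in parental cells. The lowest ratios were those of PAXIP1 (-2.63) and KDM6A (-2.31), both partners of KMT2C and KMT2D, and the highest those of PAGR1 (-0.80), of the same complex, and CXXC1 (-0.86), the CpG-binding partner of SETD1.

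Of 7 H3K4 demethylases, 6 were listed in both genotypes with a median ratio of -0.87. Of these 6, 2 were at least 2-fold narrower, against 52.2% of all genes listed in both. RIOX1, found under an older symbol, had 0 bp in knockout and 1335 bp in parental cells. Such listing in parental cells only was found for 12.5% of all genes listed in either genotype. KDM2B (-2.61) and KDM5B (-1.47) had the lowest ratios, KDM1A (-0.42), the LSD1 demethylase, and KDM5A (-0.56) the highest. Of 8 other proteins with reported H3K4 methyltransferase activity, or a related SET domain, 7 were listed in both with a median of -0.92. Of these 7, 3 were at least 2-fold narrower, again against 52.2% of all genes. PRDM9, an enzyme of germ cells, was listed in neither. SMYD1 (-1.57) and KMT2E (-1.48) were the lowest, SETMAR (-0.05) and SMYD2 (-0.46) the highest. SMYD2 and SETMAR were also the listed genes of these groups with H3K27me3: SMYD2 had 2 peaks of 5612 bp in knockout and 2 of 2044 bp in parental cells, and SETMAR 0 bp in knockout and 1979 bp in parental cells.

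Of 16 readers of H3K4me3, 14 were listed in both genotypes with a median of -1.10. Of these 14, 8 were at least 2-fold narrower, against 52.2% of all genes listed in both. The other 2 were listed in parental cells only, as were 12.5% of all genes listed in either genotype. The remodeller CHD1 had 0 bp in knockout and 1515 bp in parental cells, and SPIN1 0 bp in knockout and 825 bp in parental cells. ING3 (-1.94) and PHF2 (-1.58) had the lowest ratios, PHF8 (-0.36) and the remodeller subunit BPTF (-0.54) the highest. The medians of the lists, from -1.10 to -0.87, stood on both sides of the -1.03 of all genes. No gene of any list was at least 2-fold wider, as 0.395% of all genes were.

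**Figure D5:**
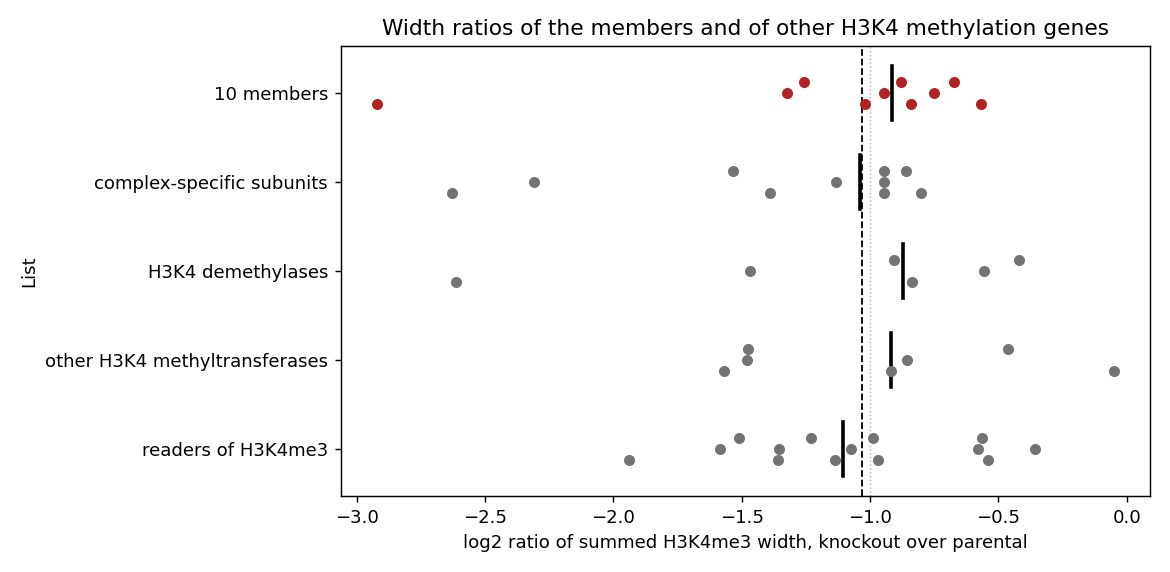
Log2 ratio of summed H3K4me3 width, knockout over parental (x axis), for each gene listed in both genotypes, with the 10 members in red, the other lists in grey, a thick bar at each list's median and a dashed line at the median of all genes. The medians lie between -1.10 and -0.87, and WDR5 at -2.92 is the lowest point.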

How the data were processed

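H3K4me3 and H3K27me3 ChIP-seq lists of 4 libraries were used; the 2 input libraries were not analysed here. Per the submitters' processing notes, BWA 0.7.10, SAMtools, MACS2 2.1.1 and hg19 were used; the sources used here give neither settings nor the role of the inputs. The antibody label of the H3K27me3 libraries names H3K4me3, and the mark was taken from the title. Per the file headers, each line holds a peak's position, a RefSeq transcript and its symbol, and the columns distance and score. The score deposited by the authors depends on the distance alone and was not used as strength. Distances were tested to be peak centre minus TSS in genome direction. Starts were read as counted from 0 and are printed from 1.

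Distinct peaks were taken per gene, widths summed, and log2 ratios (knockout over parental) computed for genes listed in both, with python 3.11.15 and pandas 2.3.3. A 2-fold limit, log2 of 1, described size. No test was possible with 1 library per group. The summed widths, listing states and ratios were tested on simulated data, for genes that share no peak with another gene. Overlap was tested on a few made-up intervals. Splitting of peaks and differences in depth were not simulated. The members and lists were chosen with earlier results of these data known. All members are named; of the other lists, genes whose state differed and the 2 lowest and 2 highest ratios. Sequences come from RefSeq, GRCh38.p14. The markers of other lineages are not reported here.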

Additional observations from a re-analysis of the deposited data

How the results depend on the processing

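All 10 members stayed listed in both genotypes within 10 kb and 5 kb of the TSS, for the nearest gene only, with lists of equal length and with older symbols added; 8 did within 1 kb and with peaks of at least 300 bp, and 0 did when only peaks spanning the TSS counted, which leaves no ratio. No alternative gave a member an H3K27me3 peak. The members' median log2 ratio was -0.89 within 10 kb, -0.80 within 5 kb, -0.93 within 1 kb, -0.90 for the nearest gene, -1.27 with peaks of at least 300 bp, -0.89 with lists of equal length, -1.15 for the widest peak and 0 for the number of peaks, against -1.01, -1.01, -0.98, -0.98, -1.22, -0.92, -1.05 and -0.32 over all genes. Members at least 2-fold lower numbered 2 by peak number and 7 by widest peak, where 27% and 52.9% of all genes were. They numbered 3 within 10 kb (50.8% of all genes), 3 within 5 kb (50.6%) and 3 with lists of equal length (45%). For the nearest gene they numbered 4 (49%), within 1 kb 4 of 8 (49.2%) and with peaks of at least 300 bp 6 of 8 (61.4%). This count therefore depended on the limit used. The overlapped share of parental member peaks was 32.1% when 50% of the peak had to be covered and 17% with reciprocal overlap. The share over all parental peaks was not computed at these limits, so these lower values cannot be read as a trait of the members. Of 86 values for single genes, 5 turned their sign: within 1 kb KMT2B had 0.014 and KMT2C 1.72, and by peak number KMT2B had 0.42, DPY30 1 and RBBP5 1.58. Within 1 kb, KMT2B and KMT2C each had a wide parental peak centred just outside the limit, at -1045 and -1038 bp. The cause of the other turns was not tested. No paired analysis was possible because each group holds 1 library. Depth is unknown, so a narrower region cannot be told apart from a shallower library.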
